A study of Rattus norvegicus with 6 samples.

Results

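Solute carriers of 13 families that move ions and metals across membranes were followed between C6-AQP1 and C6 control cells. A gene was taken as a member if its symbol began with Slc, 1 of the family numbers 4, 8, 9, 11, 12, 20, 24, 26, 30, 31, 39, 40 or 41, and the letter a with a number. This rule uses no measured value and found 49 of the 12121 genes. Of these, 46 are carriers, and the other 3, Slc9a3r1, Slc9a3r2 and Slc4a1ap, are adaptor proteins that bear a carrier's name. C6 is an established glioma line derived from a chemically induced rat brain tumour, and aquaporin AQP1 lets water pass the cell membrane. The sequenced RNA came from 3 libraries of C6 cells that overexpress Aqp1 (C6-AQP1) and 3 libraries of C6 cells without overexpression (C6 control). According to the methods, AQP1 was introduced with a pCDH vector that places the insert behind a CMV promoter and also encodes a fluorescent protein and puromycin resistance. The sources used here do not say if each library had a culture of its own, if the AQP1 line was 1 clone, or if the controls that were sequenced carried a vector without insert. The p-values given here therefore rest on the spread among 6 libraries, and this spread may be technical alone.

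Carriers of these families set the ionic makeup of a cell. Sodium-proton exchangers and bicarbonate carriers regulate the pH of the cytosol and of endosomes and take up or release salt, and the cation-chloride cotransporters move potassium, sodium and chloride, with water following. Zinc carriers come in opposed families: Slc30 proteins move zinc out of the cytosol, to the outside or into vesicles, and Slc39 proteins move it into the cytosol. Many of the other carriers use the sodium gradient that the sodium pump builds. In astrocytes and glioma cells these proteins are known for their part in pH control, cell volume and the handling of metals.

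Aqp1 had 1052, 1064 and 1057 CPM (counts relative to library size, scaled by the TMM method) in C6-AQP1 replicates 1, 2 and 3 and 347, 352 and 349 in control replicates 1, 2 and 3. Library totals ranged from 19054251 to 52725877 expected counts, and replicate 1 was the shallowest of both groups. The members took between 0.334% and 0.3396% of the counts of a library. Of the markers of astrocytes and glial progenitors 7 of 8 were listed, all but Aqp4. Their summed level was 7568, 7838 and 7813 CPM in the C6-AQP1 libraries and 5374, 5393 and 5498 in the control libraries. This sum was mostly Vim and Nes and hides a wide range. The log2 fold changes of the 7 markers ran from 0.067 to 3.57, with a median of 0.70. Of the endothelial markers 0 of 5 were listed, of the microglial markers 2 of 7 (P2ry12 and Tmem119), and of the pericyte and fibroblast markers 2 of 5 (Col1a1 and Pdgfrb). The microglial pair summed to 25.2, 28.1 and 27.9 CPM in the C6-AQP1 libraries and 32.1, 34.9 and 33.7 in the control libraries, a sum carried by Tmem119, which fell (log2 fold change -0.59), while P2ry12 rose (1.22). The pericyte and fibroblast pair, mostly Col1a1, summed to 45.1, 48.6 and 50.6 CPM in the C6-AQP1 libraries and 14.04, 15.4 and 14.7 in the control libraries. The 3 listed of 5 markers of mature oligodendrocytes summed to 628, 619 and 627 CPM in the C6-AQP1 libraries and 129, 133 and 129 in the control libraries. Those of neurons, with 4 of 5 listed, summed to 39.7, 38.9 and 39.97 CPM in the C6-AQP1 libraries and 27.6, 29.4 and 27.6 in the control libraries. In the control libraries this sum was mostly Nefl and Tubb3, which did not pass the test (log2 fold changes -0.10 and 0.14). The rise of the sum was mostly that of Syt1, from a mean of 0.166 CPM in control to 10.7 in C6-AQP1 cells. Syt1 and Snap25 rose: Syt1 had 203, 454 and 455 counts in C6-AQP1 replicates 1, 2 and 3 and 5, 5 and 9 in control replicates 1, 2 and 3, and Snap25 had 43, 63 and 85 against 4, 19 and 9. The part of these changes in the carrier results was not tested, and fewer cells of a kind and less RNA per cell cannot be told apart in bulk RNA.

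In C6-AQP1 cells 21 of the 49 members rose, 18 fell and the other 10 did neither, where a rise or fall needed an adjusted p under 0.05 from edgeR's quasi-likelihood test. SE stands for standard error, on the log2 scale. Over all 12121 genes, 40.8% were called higher and 40.7% lower, so the members' shares of 42.9% and 36.7% lay near the background. A fold change above 2 in either direction with an adjusted p under 0.05, the thresholds that the methods set for a differentially expressed gene (DEG), was reached by 6 members upward and 1 downward. The background for these calls was 9.74% and 4.35% of all genes. The 6 upregulated DEGs were Slc24a3, Slc9a5, Slc12a7, Slc39a4, Slc4a8 and Slc26a2, and the downregulated DEG was the adaptor Slc9a3r2. The median log2 fold change of the members was 0.033, beside 0.0010 over all genes, and their median size regardless of direction was 0.33, beside 0.43. In 38 of the 49 members the libraries of the groups did not overlap, and in 82.5% of all genes. Of the upregulated DEGs, Slc24a3, Slc12a7, Slc39a4 and Slc4a8 had a mean under 100 counts per library, and with such genes left out 2 upregulated DEGs remained, Slc9a5 and Slc26a2.

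**Figure D1:**
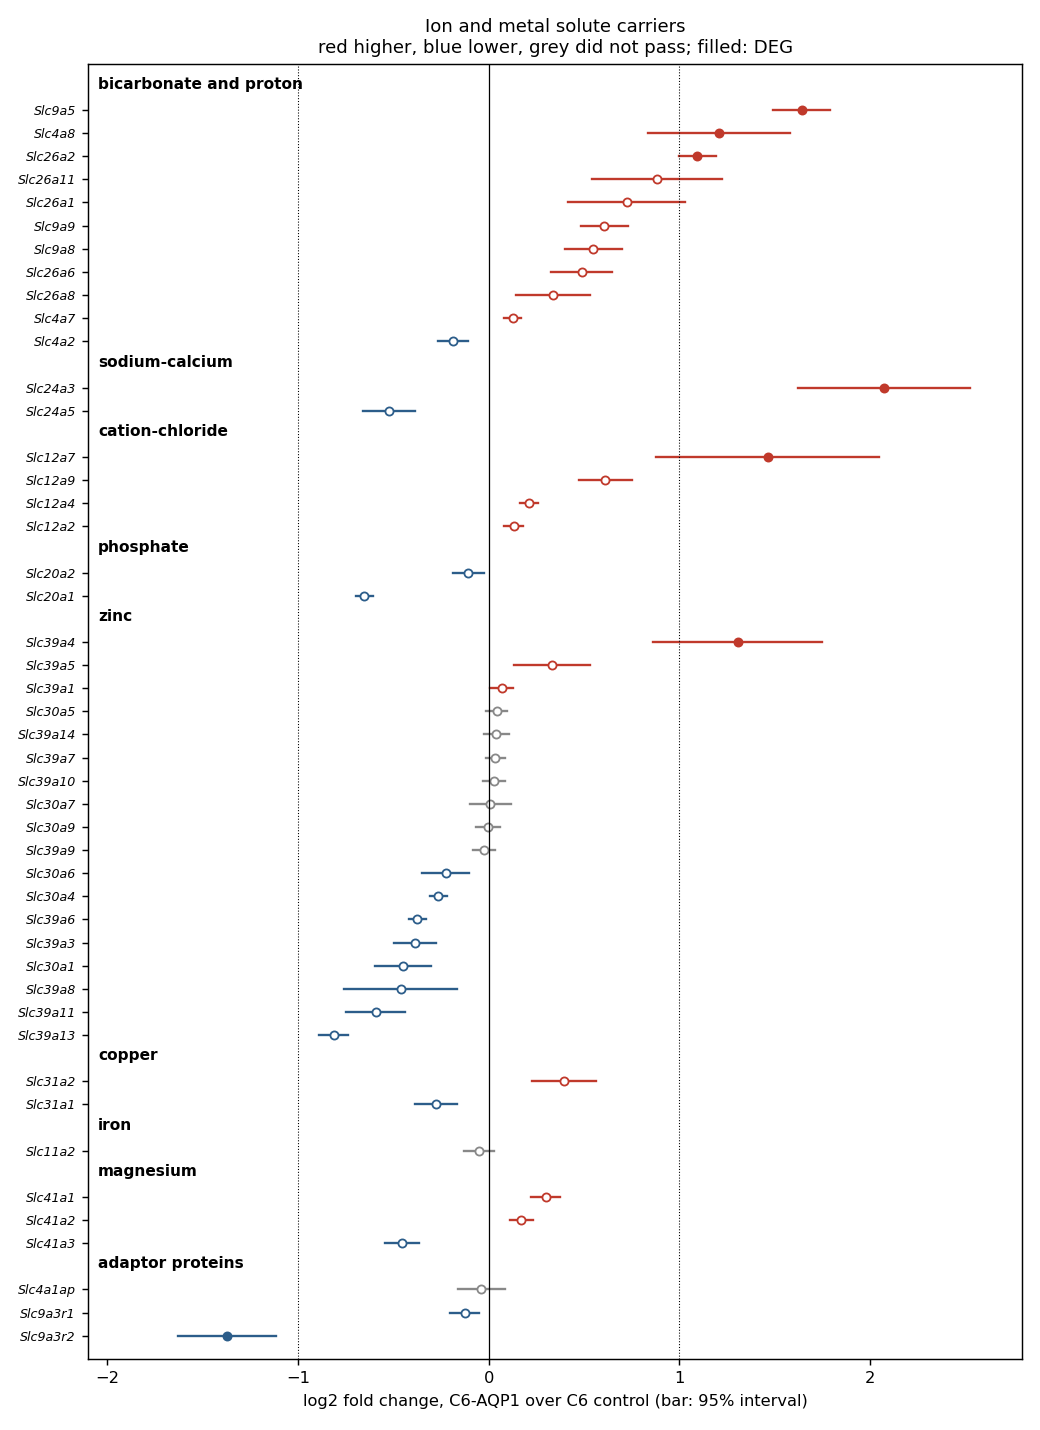
Log2 fold change of 46 of the 49 members between C6-AQP1 and C6 control cells, ordered by what they carry, with bars for the 95% interval. Filled points are the 6 upregulated and 1 downregulated DEGs, dotted lines mark a fold change of 2, and most bicarbonate and proton carriers lie to the right of 0 while most zinc carriers lie at or to the left of it.

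The RefSeq gene table of the GRCr8 assembly holds 82 protein-coding symbols that the rule matches, of which 47 were among the genes tested; Slc9a3r1 and Slc9a3r2 are not in that table under these symbols. The deposited genes are those with a mean TPM (a level corrected for transcript length and library size) above 1 in at least 1 group. A gene that passed only through the group in which it was high therefore had to differ. This may hold for Slc12a7, Slc39a4, Slc24a3 and Slc4a8, with control means of 0.48, 0.77, 0.82 and 1.14 CPM. Transcript lengths were not used, so it is not known how these genes passed. If it was through C6-AQP1 only, their rise was fixed by the filter. The same may hold for the neuron markers Syt1 and Snap25, which had few control counts. The other 35 symbols were not analysed here, among them all 3 sodium-calcium exchangers of the Slc8 family and Slc40a1, the iron exporter ferroportin. All members of the Slc20, Slc31 and Slc41 families were listed.

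Carriers of bicarbonate, protons and related anions mostly rose in C6-AQP1 cells, led by the exchangers Slc9a5 and Slc4a8 and the sulfate carrier Slc26a2. Of 13 listed carriers of the Slc4, Slc9 and Slc26 families, 10 rose, 2 fell and 1 did neither. The share that rose was 76.9%, beside 40.8% of all genes, and the median log2 fold change was 0.55. Slc9a5, a sodium-proton exchanger known mainly from brain, had 22.2, 24.004 and 21.3 CPM in the C6-AQP1 libraries and 6.87, 6.98 and 7.65 in the control libraries. The lowest C6-AQP1 library exceeded the highest control, with a log2 fold change of 1.64 (SE 0.072, adjusted p = 4.5e-15), or 3.12-fold.

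Among the exchangers of intracellular membranes, Slc9a9 and Slc9a8 rose. Slc9a9, an exchanger of endosomes, had 20.5, 20.6 and 20.6 CPM against 13.1, 13.2 and 14.1 in the controls, a log2 fold change of 0.61 (SE 0.059, adjusted p = 5.0e-09). Slc9a8, which is found on Golgi and endosomal membranes, rose with a log2 fold change of 0.55 (SE 0.072, adjusted p = 4.2e-07).

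All 5 listed members of the Slc26 family of anion exchangers rose, where 40.8% of all genes did. Slc26a2 brings in the sulfate that cells add to proteoglycans, and it went from 23.3, 20.9 and 21.4 CPM in the control libraries to 47.6, 46.7 and 44.7 in the C6-AQP1 libraries. Its log2 fold change of 1.09 (SE 0.046, adjusted p = 2.8e-15) had a 95% interval of 1.00 to 1.19, with its lower end at a fold change of 2. Slc26a6, an exchanger of chloride, bicarbonate and oxalate, had a log2 fold change of 0.49 (SE 0.077, adjusted p = 5.8e-06). Slc26a11, which also carries sulfate, had 58, 159 and 158 counts in C6-AQP1 replicates 1, 2 and 3 and 44, 82 and 116 in control replicates 1, 2 and 3, and a log2 fold change of 0.88. Slc26a8, known from testis, rose by less, with a log2 fold change of 0.34. The sulfate and oxalate carrier Slc26a1 had a log2 fold change of 0.72 (adjusted p = 1.4e-04). In the RefSeq table its whole gene span overlaps that of Idua, a lysosomal enzyme, which had a log2 fold change of 1.37 (adjusted p = 1.3e-17). Reads of overlapping genes may be divided between them, and the part of Idua in the rise of Slc26a1 was not tested. The summed level of the 5 Slc26 genes was 74.8, 77.6 and 73.9 CPM in the C6-AQP1 libraries and 44.4, 41.8 and 41.3 in the control libraries.

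Among the bicarbonate carriers of the Slc4 family, the largest change was that of Slc4a8, an exchanger of sodium and bicarbonate for chloride. It had 2.82, 2.96 and 2.34 CPM in C6-AQP1 and 0.987, 1.22 and 1.21 in control cells, without overlap, and a log2 fold change of 1.21 (SE 0.18, adjusted p = 2.3e-06). Slc4a7, an electroneutral cotransporter of sodium and bicarbonate that loads cells with base, changed little but beyond the spread of the libraries. Its values were 334, 346 and 336 CPM in C6-AQP1 and 310.2, 314 and 309 in control cells, a log2 fold change of 0.12 (SE 0.021, adjusted p = 1.1e-05). Slc4a2, the anion exchanger that takes bicarbonate out in trade for chloride, fell from 135, 141 and 147 to 117, 127 and 127 CPM, a log2 fold change of -0.19 (SE 0.037, adjusted p = 3.0e-04). The ratio of Slc4a7 to Slc4a2 counts, which does not depend on how libraries are scaled, was 2.87, 2.73 and 2.64 in the C6-AQP1 libraries and 2.298, 2.22 and 2.098 in the control libraries. The pairs of carriers set against each other in this way were chosen after their values were seen, so their ratios are a description without a test.

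The 3 adaptor proteins did not rise. Slc9a3r2, a PDZ scaffold that ties exchangers and receptors to the cortical cytoskeleton, had 2.92, 2.66 and 2.88 CPM in C6-AQP1 and 8.21, 6.26 and 7.57 in control cells. It was the only member that fell by more than 2-fold, 2.59-fold lower, with a log2 fold change of -1.37 (SE 0.12, adjusted p = 1.1e-09). Slc9a3r1, the related scaffold, fell by little, with a log2 fold change of -0.13 (SE 0.037, adjusted p = 0.00367), and this call was lost when libraries were scaled by their totals alone (adjusted p = 0.0724 from edgeR, and at most 0.0423 under the other alternatives). Slc4a1ap, or kanadaptin, overlapped between groups, with a log2 fold change of -0.039 and a 95% interval of -0.16 to 0.084.

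**Figure D2:**
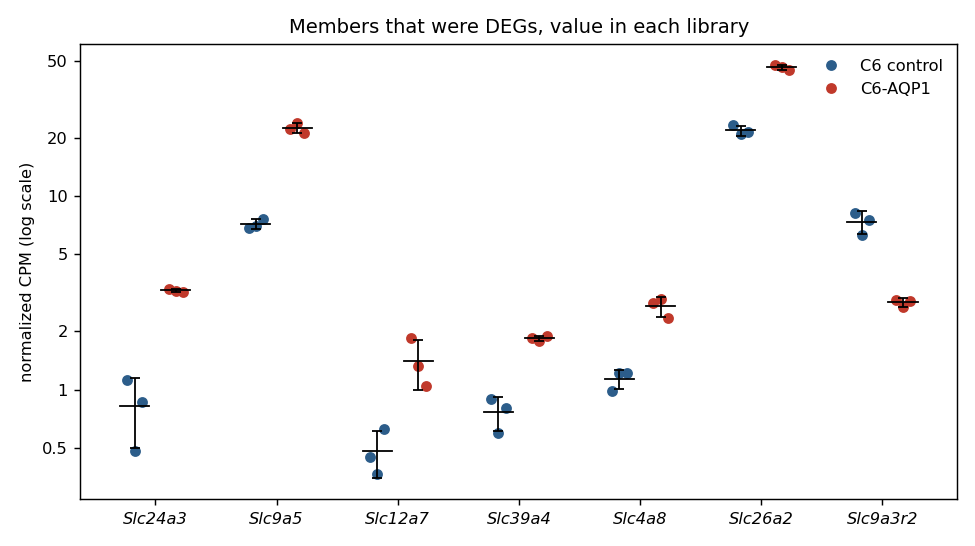
Normalized CPM on a log scale of the 7 members that were DEGs. Points stand for single libraries, and black bars for the mean with SD of 3 libraries; C6-AQP1 values exceed all control values for Slc24a3, Slc9a5, Slc12a7, Slc39a4, Slc4a8 and Slc26a2 and fall short of them for Slc9a3r2.

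Genes that work with the acid and base carriers are the carbonic anhydrases, which interconvert carbon dioxide and bicarbonate, and the cofactor proteins of the exchangers. All 6 listed carbonic anhydrases rose, where 40.8% of all genes did, with a median log2 fold change of 0.82. Car6 had means of only 0.22 CPM in control and 0.87 in C6-AQP1 cells. It may have passed the TPM filter through C6-AQP1 only, and its rise would then be fixed by the filter. The count was 5 with DESeq2, with a filter at a mean of 100 counts, without C6-AQP1 replicate 2 and without control replicate 2. Car9, the extracellular anhydrase known as a marker of hypoxic tumours, had 69.1, 78.3 and 73.3 CPM in C6-AQP1 and 15.8, 15.4 and 15.5 in control cells, a log2 fold change of 2.25 (SE 0.047, adjusted p = 1.3e-20). The mitochondrial Car5b went from 101, 101 and 97.6 to 169.6, 165 and 160.2 CPM, a log2 fold change of 0.72 (SE 0.027, adjusted p = 3.7e-16). Car11, a related protein, and Car12, another extracellular anhydrase, had log2 fold changes of 0.91 and 0.26. Of 5 cofactors 4 rose and 1 fell, or 80% and 20% beside 40.8% and 40.7% of all genes. Tesc, a calcium-binding partner of sodium-proton exchangers, went from 5.79, 5.8002 and 5.75 to 17.1, 16.5 and 16.1 CPM, a log2 fold change of 1.52 (SE 0.072, adjusted p = 2.2e-14). Chp1, the calcium-binding subunit that these exchangers need, fell from 214, 209 and 213 to 143, 147 and 147 CPM, a log2 fold change of -0.54 (SE 0.023, adjusted p = 3.3e-15). Ahcyl1 and Ahcyl2, regulators of bicarbonate cotransporters, had log2 fold changes of 0.37 and 0.50, and the membrane linker Ezr had 0.15.

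The 2 listed carriers that exchange sodium and potassium for calcium changed in opposite directions. Slc24a3, an exchanger of the plasma membrane, had 65, 134 and 135 counts in C6-AQP1 replicates 1, 2 and 3 and 25, 25 and 44 in control replicates 1, 2 and 3. On the CPM scale the C6-AQP1 libraries lay at 3.33, 3.25 and 3.19 and the control libraries at 1.12, 0.483 and 0.8605, and the log2 fold change of 2.07 (SE 0.22, adjusted p = 1.8e-08) was the highest of all members. The control values of this gene varied by more than 2-fold among themselves. Slc24a5, an exchanger of intracellular membranes known from pigment cells, fell from 29.7, 29.6 and 26.97 to 21.5, 17.9 and 20.9 CPM, a log2 fold change of -0.52 (SE 0.064, adjusted p = 5.9e-07). Its gene span overlaps that of Myef2 at one end, and Myef2 had a log2 fold change of -0.48 (adjusted p = 4.7e-13). The part of Myef2 in the fall of Slc24a5 was not tested. The ratio of Slc24a3 to Slc24a5 counts was 0.155, 0.181 and 0.153 in the C6-AQP1 libraries and 0.0378, 0.0163 and 0.0319 in the control libraries.

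All 4 listed calcium pumps, which move calcium out of the cytosol with ATP, had lower values in C6-AQP1 cells, with log2 fold changes between -0.30 for Atp2b1 of the plasma membrane and -0.059 for Atp2a2 of the endoplasmic reticulum. All 4 passed the test, or 100% called lower beside 40.7% of all genes. However, Atp2a2 and Atp2b4 did not pass when libraries were scaled by totals or by the upper quartile. They also did not pass with a filter at a mean of 100 counts, or without control replicate 3. Without C6-AQP1 replicate 3, control replicate 1 or control replicate 2, Atp2b4 did not pass either, and the range of its adjusted p over the alternatives was 0.0075 to 0.797. Among the 9 listed subunits and regulators of the sodium pump, 7 rose, 1 fell and 1 did not pass. The shares that rose and fell were 77.8% and 11.1%, beside 40.8% and 40.7% of all genes. Atp1b2, the glial beta subunit, went from 3.14, 2.803 and 3.25 to 82.6, 88.7 and 87.7 CPM, a log2 fold change of 4.83 (SE 0.058, adjusted p = 1.4e-24). The small regulators Fxyd1 and Fxyd7 had log2 fold changes of 3.58 (SE 0.23) and 3.59 (SE 0.22), from few control counts. Fxyd1 had 12, 18 and 11 counts in control replicates 1, 2 and 3 and 73, 183 and 162 in C6-AQP1 replicates. Fxyd7 had 4, 15 and 22 against 79, 174 and 152. With control means of 0.37 CPM for Fxyd1 and 0.30 for Fxyd7, both may have passed the TPM filter through C6-AQP1 only. Their rise would then be fixed by the filter, and both are among the 7 that rose.

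Of the 5 listed cation-chloride cotransporters 4 rose and 1 fell, or 80% and 20% beside 40.8% and 40.7% of all genes. Slc12a2, the cotransporter that loads cells with sodium, potassium and chloride, had 229, 232 and 228 CPM in C6-AQP1 and 204, 209.8 and 214 in control cells, a log2 fold change of 0.13 (SE 0.023, adjusted p = 2.2e-05). Slc12a4, a potassium-chloride cotransporter that releases salt when cells swell, had 214, 223 and 223 CPM against 189, 188 and 193 in the controls, a log2 fold change of 0.21 (SE 0.024, adjusted p = 3.9e-08). Slc12a7, another potassium-chloride cotransporter, had 36, 55 and 44 counts in C6-AQP1 replicates 1, 2 and 3 and 10, 19 and 32 in control replicates 1, 2 and 3. Its log2 fold change of 1.46 (SE 0.28, adjusted p = 6.8e-05) had a 95% interval of 0.88 to 2.05, so its size is known only roughly. Slc12a9, a less studied relative, rose from 10.9, 11.001 and 11.6 to 15.9, 17.3 and 17.7 CPM, a log2 fold change of 0.61 (SE 0.066, adjusted p = 2.6e-08).

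The WNK kinases sense chloride and, through the kinases Stk39 and Oxsr1, switch these cotransporters on or off by phosphorylation. Of 10 listed genes of this pathway 4 rose, 4 fell and 2 did neither. The shares that rose and fell, both 40%, lay near the 40.8% and 40.7% of all genes. Wnk4 went from 30.8, 31.5 and 31.7 CPM in control libraries to 79.5, 82.2 and 82.9 in C6-AQP1 libraries, a log2 fold change of 1.38 (SE 0.035, adjusted p = 2.8e-19), and Wnk1 had a log2 fold change of 0.44. Stk39 fell with a log2 fold change of -0.33 (SE 0.050, adjusted p = 3.0e-06), and Oxsr1 with a log2 fold change of -0.30 (SE 0.026, adjusted p = 6.2e-10). Klhl2 and Cul3, parts of the ubiquitin ligase that removes WNK kinases, fell with log2 fold changes of -0.46 and -0.45.

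Both sodium-phosphate cotransporters fell, Slc20a1 by more than Slc20a2. This was 100% called lower, beside 40.7% of all genes. Slc20a1, a main route of phosphate uptake in most cells, had 208, 207 and 207 CPM in the C6-AQP1 libraries and 334, 324 and 321 in the control libraries. The groups lay well apart, with a log2 fold change of -0.65 (SE 0.022, adjusted p = 3.6e-17), and the C6-AQP1 level was 1.57-fold lower. Slc20a2, its relative, had 43.1, 46.5 and 44.6 CPM against 49.9, 46.8 and 48.9, and a log2 fold change of -0.11 (SE 0.039, adjusted p = 0.0165). Its gene span overlaps that of Smim19 by 8044 bases, and Smim19 had a log2 fold change of -0.16 (adjusted p = 0.0189 from edgeR). The part of Smim19 in the fall of Slc20a2 was not tested. The fall of Slc20a2 did not pass in 6 of the alternatives, where its adjusted p from edgeR reached 0.207; these were scaling by totals or by the upper quartile, and leaving out replicate 1 of both groups, C6-AQP1 replicate 3, control replicate 1 or control replicate 3. The ratio of Slc20a1 to Slc20a2 counts was 4.82, 4.45 and 4.63 in the C6-AQP1 libraries and 6.697, 6.91 and 6.56 in the control libraries. Of 4 other genes of phosphate handling 2 rose and 2 fell, 50% each, beside 40.8% and 40.7% of all genes. Ankh, an exporter linked to extracellular pyrophosphate, had a log2 fold change of 0.72, and Enpp1, the ectoenzyme that makes pyrophosphate from nucleotides, had -0.58. Slc25a3, the mitochondrial phosphate carrier, had -0.38, and Xpr1, the phosphate exporter, had 0.12.

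Zinc carriers made up the largest group. Of 18 listed carriers 3 rose, 8 fell and the remaining 7 did not pass. The shares that rose and fell were 16.7% and 44.4%, beside 40.8% and 40.7% of all genes. The median log2 fold change was -0.014. None of the 6 listed exporters of the Slc30 family rose, 3 fell and 3 did not pass. Of the 12 listed importers of the Slc39 family 3 rose, 5 fell and 4 did not pass. The count of zinc carriers that rose depended on scaling and was 6 with upper-quartile factors and 7 with library totals alone, where carriers with small changes also passed.

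The promoters of zinc-responsive genes carry metal response elements, which the zinc sensor Mtf1 binds. Stretches of RefSeq promoters (GRCr8 assembly) are shown for 2 zinc carriers that fell and hold such elements, Slc30a1 and Slc39a13, and for 2 metallothionein genes, Mt1 and Mt3, whose levels moved in opposite directions. Capitals mark the core of the element, spelled TGCACNC or TGCGCNC, on either strand, where N is any base. Each stretch runs 5′ to 3′ on the gene's strand and ends before the annotated start site.
Slc30a1, chr13:106021913-106022018, plus strand: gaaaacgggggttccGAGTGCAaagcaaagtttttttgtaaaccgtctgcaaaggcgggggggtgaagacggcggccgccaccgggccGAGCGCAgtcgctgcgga
Slc39a13, chr3:97503045-97503143, minus strand: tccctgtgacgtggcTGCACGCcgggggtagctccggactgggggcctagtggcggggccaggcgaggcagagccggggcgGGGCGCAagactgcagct
Mt1, chr19:10833009-10833166, minus strand: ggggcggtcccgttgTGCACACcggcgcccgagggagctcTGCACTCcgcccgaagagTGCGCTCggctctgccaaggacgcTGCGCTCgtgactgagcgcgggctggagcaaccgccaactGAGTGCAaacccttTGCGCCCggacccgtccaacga
Mt3, chr19:10856110-10856205, minus strand: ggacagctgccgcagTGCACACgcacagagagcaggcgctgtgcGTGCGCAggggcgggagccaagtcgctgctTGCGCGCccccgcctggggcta

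In the window from 250 bases before to 50 after the start site, 24.2% of all 33469 promoters in the table held at least 1 core, and 6.36% held 2 or more, counting overlapping matches on opposite strands as 2. Promoters were found for 15 of the 18 zinc carriers, and 7 of these genes had a core. By promoter this was 8 of 16, beside 17 of 37 promoters of all members (45.9%). Slc30a6, Slc39a3, Slc39a6 and Slc39a8, which fell, had 0 cores, while Slc30a4 and Slc39a11, which also fell, had 3 and 2. Of those that did not pass the test, Slc30a5 and Slc39a7 had 2 and 4, and Slc30a9, Slc39a9 and Slc39a10 had 0. Slc39a1 and Slc39a5, which rose, had 1 and 0. Slc30a1 had 2, which begin 91 and 18 bases before the start site, and Slc39a13 had 2, at 84 and 18 bases. All 4 promoters found for metallothioneins and Mtf1 held 2 or more, with 6 for Mt1, 4 for Mt2A, 3 for Mt3 and 2 for Mtf1. A match describes these letters only and is no sign of binding.

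Among the exporters, Slc30a1, which moves zinc out through the plasma membrane, had 15.2, 16.4 and 13.8 CPM in C6-AQP1 and 20.4, 19.5 and 21.9 in control cells. The groups did not overlap, with a log2 fold change of -0.45 (SE 0.069, adjusted p = 5.0e-06). Slc30a4, which fills vesicles with zinc, had 182, 182 and 182 CPM in C6-AQP1 and 219, 219 and 218 in control cells, a log2 fold change of -0.27 (SE 0.021, adjusted p = 2.0e-10). Slc30a6, which works in the secretory pathway as a partner of Slc30a5, fell with a log2 fold change of -0.23 (SE 0.060, adjusted p = 0.00163). Slc30a5 itself had 129, 123 and 129.5 CPM against 121, 125 and 124 in the controls. These values overlapped, and the log2 fold change of 0.041 had a 95% interval of -0.015 to 0.10 (adjusted p = 0.164). Slc30a7, also of the secretory pathway, and Slc30a9 had intervals of -0.10 to 0.11 and -0.065 to 0.058 on the log2 scale.

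The largest fall among the zinc carriers was that of Slc39a13, a carrier of intracellular vesicles and Golgi known from a connective tissue disorder. Its values were 36.9, 36.5 and 36.5 CPM in C6-AQP1 and 64.97, 62.5 and 65.8 in control cells, a log2 fold change of -0.81 (SE 0.036, adjusted p = 5.8e-15), or 1.76-fold lower. Slc39a11 fell from 11.4, 11.7 and 12.5 to 7.68, 7.7995 and 8.13 CPM, a log2 fold change of -0.59 (SE 0.075, adjusted p = 2.6e-07). Slc39a6, an importer of the plasma membrane, had 174, 174 and 179 CPM in C6-AQP1 and 225, 229.997 and 228 in control cells, a log2 fold change of -0.37 (SE 0.022, adjusted p = 1.2e-12). Slc39a3, another plasma membrane importer, had a log2 fold change of -0.39, and Slc39a8, which also carries manganese, had -0.46 (adjusted p = 0.00513 from edgeR).

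Slc39a4, the importer that takes up dietary zinc in the intestine, was the only zinc carrier that was a DEG. It had 36, 74 and 80 counts in C6-AQP1 replicates 1, 2 and 3 and 20, 31 and 41 in control replicates 1, 2 and 3. On the CPM scale this was 1.84, 1.79 and 1.89 against 0.897, 0.599 and 0.802, a log2 fold change of 1.31 (SE 0.21, adjusted p = 9.3e-06). Slc39a5, a related importer, rose with a log2 fold change of 0.33 (adjusted p = 0.00312 from edgeR), and its span overlaps that of Ankrd52, which had 0.22 (adjusted p = 4.1e-08) on the same scale. Slc39a1, an importer present in most cells, had 209, 226 and 224 CPM in C6-AQP1 and 203, 211 and 215 in control cells. These libraries overlapped, and its adjusted p of 0.0347 lay just under the threshold, with a range of 2.2e-04 to 0.181 over the alternatives. It did not pass with DESeq2, without robust estimation, or without C6-AQP1 replicate 2 or 3 or control replicate 1. Slc39a7, which releases zinc from the endoplasmic reticulum, Slc39a9, Slc39a10 and Slc39a14 did not pass the test, and their 95% intervals all lay between -0.083 and 0.10 on the log2 scale. Summed over the 18 genes, zinc carriers had 1376, 1399 and 1406 CPM in the C6-AQP1 libraries and 1503, 1512 and 1513 in the control libraries.

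**Figure D3:**
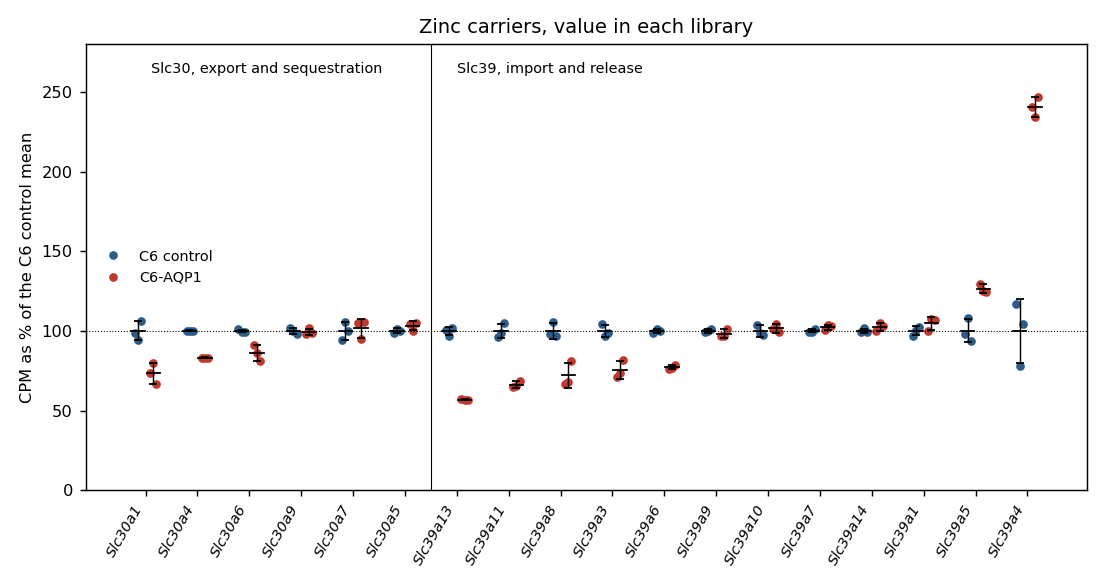
Level of each zinc carrier in each library, as a percent of the mean of the C6 control libraries, with the Slc30 family on the left and the Slc39 family on the right. Points are libraries and black bars the mean with SD over 3 libraries; Slc39a4 stands far above 100% in C6-AQP1 cells, Slc39a13 lies lowest, and about as many carriers lie near 100% as below it.

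Of 5 listed genes, the metallothioneins and the zinc sensor Mtf1, 4 rose and 1 fell. The shares were 80% and 20%, beside 40.8% and 40.7% of all genes. Mt2A, a metallothionein that binds zinc and copper in the cytosol, had 36.3, 30.1 and 28.6 CPM in C6-AQP1 and 20.01, 19.4 and 17.6 in control cells, a log2 fold change of 0.72 (SE 0.089, adjusted p = 3.6e-05). Mt3, the metallothionein of brain, went from 10.5, 10.2 and 10.1 to 23.1, 18.2 and 16.004 CPM, a log2 fold change of 0.87 (SE 0.12, adjusted p = 1.4e-04). Mt1 went the other way, from 6.42, 5.94 and 6.14 to 3.84, 4.17 and 4.26 CPM, a log2 fold change of -0.58 (SE 0.11, adjusted p = 3.9e-05). Mt1m had 12, 23 and 26 counts in C6-AQP1 and 6, 18 and 14 in control replicates 1, 2 and 3, too few to give its size closely (log2 fold change 0.96, adjusted p = 0.0111 from edgeR). It did not pass with DESeq2 (adjusted p = 0.06), where 3 of these genes rose. Mtf1 rose with a log2 fold change of 0.42 (SE 0.064, adjusted p = 2.3e-05). Metallothionein genes resemble each other closely, so the division of reads among them is uncertain.

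The copper carriers moved in opposite directions. Slc31a1, the main copper importer of the plasma membrane, had 36.1, 32.9 and 31.3 CPM in C6-AQP1 and 41.2, 37.8 and 41.6 in control cells, a log2 fold change of -0.28 (SE 0.052, adjusted p = 8.1e-05). Slc31a2, its relative of late endosomes and lysosomes, had 22.8, 18.8 and 19.2 CPM against 16.9, 14.04 and 15.2, a log2 fold change of 0.39 (SE 0.079, adjusted p = 2.1e-04). Replicate 1 of C6-AQP1 was the highest of its group for both genes, and the groups did not overlap for either. The ratio of Slc31a2 to Slc31a1 counts was 0.631, 0.571 and 0.613 in the C6-AQP1 libraries and 0.409, 0.372 and 0.366 in the control libraries. Among 9 other genes of copper handling, 3 rose, 5 fell and 1 did not pass. The shares that rose and fell were 33.3% and 55.6%, beside 40.8% and 40.7% of all genes. The pumps that export copper, Atp7a and Atp7b, rose. Atp7a went from 60.6, 55.3 and 57.3 to 103, 102 and 99.5 CPM, a log2 fold change of 0.82 (SE 0.033, adjusted p = 1.2e-15), and Atp7b had a log2 fold change of 1.70. The chaperones that pass copper on did not all go 1 way. Atox1, which serves these pumps, had a log2 fold change of -0.58, and Cox17, which serves cytochrome c oxidase, had -1.04 (edgeR, adjusted p = 3.1e-11 for Atox1 and 8.9e-11 for Cox17). Ccs and Sco1, chaperones of superoxide dismutase and of cytochrome c oxidase, also fell, with log2 fold changes of -0.25 and -0.53, while Cox11, another chaperone of cytochrome c oxidase, rose with a log2 fold change of 0.24 (SE 0.067, adjusted p = 0.00287).

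Slc11a2, which carries ferrous iron out of endosomes and into the cytosol, was the only listed member of the Slc11 and Slc40 families, grouped here as iron carriers. It had 54.03, 59.4 and 60.4 CPM in C6-AQP1 and 60.1, 59.3 and 61.7 in control cells, and these libraries overlapped. Its log2 fold change of -0.049 had a 95% interval of -0.13 to 0.030 (adjusted p = 0.234). Of 13 other genes of iron handling 6 rose, 4 fell and 3 did neither, and over the alternatives 5 to 7 rose and 3 to 6 fell. The shares that rose and fell were 46.2% and 30.8%, beside 40.8% and 40.7% of all genes. Tfrc, the transferrin receptor that brings iron into the endosomes where Slc11a2 works, fell from 180.4, 178 and 173 to 55.7, 52.7 and 52.8 CPM, a log2 fold change of -1.73 (SE 0.029, adjusted p = 4.1e-22). Cp, the ferroxidase ceruloplasmin, rose from 144, 140.3 and 139.7 to 522, 513 and 497 CPM, a log2 fold change of 1.86 (SE 0.023, adjusted p = 2.3e-24). Ncoa4, which leads ferritin to its breakdown, had a log2 fold change of 0.39. The ferritin light chain Ftl1 had 90.4, 64.02 and 61.3 CPM in C6-AQP1 and 91.6, 88.5 and 82.1 in control cells, with C6-AQP1 replicate 1 apart from the other libraries of its group. Its log2 fold change of -0.31 did not pass the test (adjusted p = 0.156 from edgeR). Without C6-AQP1 replicate 1 it was -0.47 (adjusted p = 2.0e-11) and without replicate 1 of both groups -0.44 (adjusted p = 1.8e-23), both by edgeR. It also passed with limma-voom (adjusted p = 0.0024) and without robust estimation (adjusted p = 0.0134), and the adjusted p reached 0.367 over the other alternatives. Pseudogenes of Ftl1 may share its reads.

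Of the 3 magnesium carriers, all listed, 2 rose and 1 fell, or 66.7% and 33.3% beside 40.8% and 40.7% of all genes. Slc41a1, an exchanger of sodium and magnesium in the plasma membrane, had 78.3, 86.2 and 83.7 CPM in C6-AQP1 and 64.8, 67.3 and 69.8 in control cells, a log2 fold change of 0.30 (SE 0.036, adjusted p = 2.0e-07). Slc41a2 had 87.4, 83.98 and 85.7 CPM against 75.8, 75.8 and 76.4, a log2 fold change of 0.17 (SE 0.029, adjusted p = 1.6e-05). Slc41a3, which has been placed in mitochondria, fell from 40.4, 42.98 and 42.6 to 29.3, 30.5 and 31.9 CPM, a log2 fold change of -0.46 (SE 0.043, adjusted p = 2.4e-09). The ratio of Slc41a1 to Slc41a3 counts was 2.67, 2.83 and 2.62 in the C6-AQP1 libraries and 1.603, 1.57 and 1.64 in the control libraries. Of 10 other genes of magnesium handling 5 rose, 3 fell and 2 did not pass. The shares that rose and fell were 50% and 30%, beside 40.8% and 40.7% of all genes. Trpm7, a magnesium channel fused to a kinase, rose with a log2 fold change of 0.67 (SE 0.026, adjusted p = 4.9e-16), and the putative carrier Nipal3 had a log2 fold change of 1.36. Cnnm2, which regulates magnesium export, had 0.44, and Tusc3, a membrane protein linked to magnesium uptake and glycosylation, fell with a log2 fold change of -0.62 (SE 0.028, adjusted p = 9.5e-15).

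**Figure D4:**
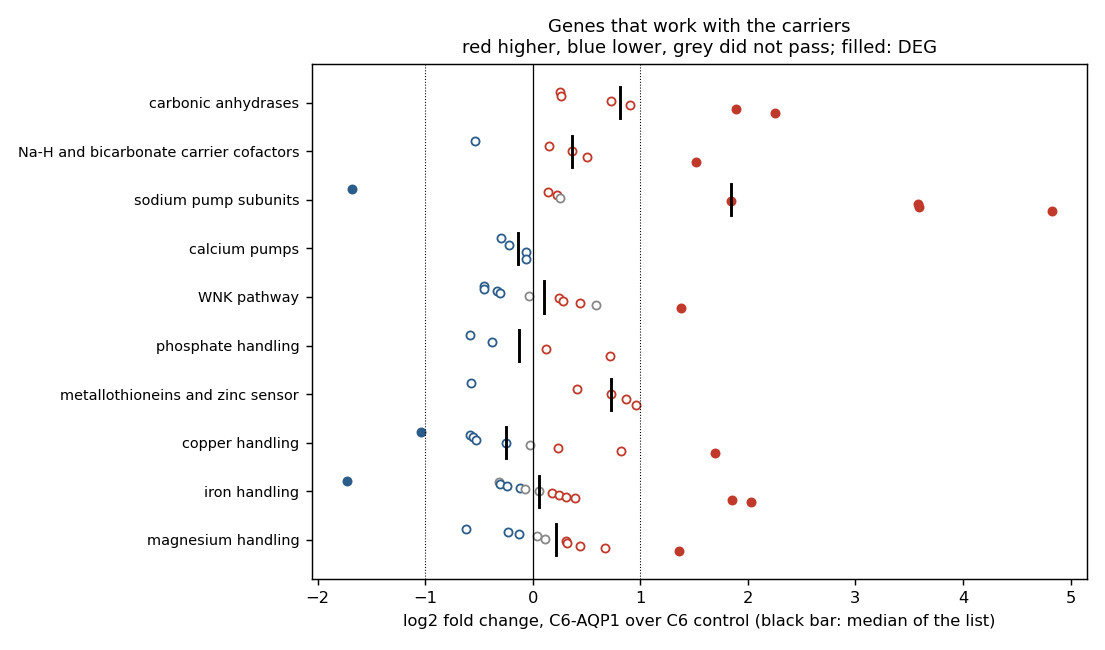
Log2 fold changes of 74 of the 75 listed genes that work with the carriers, by list, with a black bar for the median of each whole list and filled points for DEGs. The sodium pump list reaches furthest to the right, all 6 carbonic anhydrases lie right of 0, and all 4 calcium pumps lie left of it.

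Over all partner genes 41 of 75 rose and 25 fell, which is 54.7% and 33.3% beside 40.8% and 40.7% of all genes. Those that rose include genes, such as Car6, Fxyd1 and Fxyd7, that may have passed the TPM filter through C6-AQP1 only. Of the members, 9 have a gene span that overlaps another listed gene in the RefSeq table, whose assembly (GRCr8) is not the rn6 build of the counts, among them Slc20a2, Slc24a5, Slc26a1, Slc26a11, Slc31a1, Slc39a5, Slc39a7 and Slc39a11. The library kit named in the labels is not described there as strand-specific, so reads from such pairs may not be told apart. The overlaps differ greatly in size. They span 2 bases for Slc39a7, 18 for Slc26a11 and 49 for Slc31a1, but 8044 for Slc20a2 and 9793 for Slc26a1.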

How the data were processed

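RNA was sequenced from 3 C6-AQP1 and 3 C6 control libraries, grouped by their titles. Per the methods and the submitters' processing notes, read quality was checked (FastQC 0.11.2), reads were trimmed (Trimmomatic 0.36) and aligned to rn6 (STAR 2.5.1b), and RSEM 1.2.29 quantified genes of an annotation not given in the sources used here. What the authors deposited are these expected counts, which can be fractional and carry no normalization, for 12121 genes with a mean TPM above 1 in a group. Reads were single and of 100 nucleotides per the labels but paired-end per the methods.

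Counts were rounded, scaled by TMM in edgeR 4.0.16 (R 4.3.3) and compared over all genes by the quasi-likelihood test (robust estimation, groups as the only term). Adjusted p-values are from this test with Benjamini-Hochberg adjustment over 12121 genes, except those named as of an alternative, which are adjusted over the genes of that fit. Standard errors were taken from the fold change and the test statistic. DESeq2 1.42.0, limma-voom (limma 3.58.1), other scalings and filters, a replicate term and each library left out were the alternatives. The steps were tested on simulated data. The common biological coefficient of variation came to 2.97%. Replicates differed by more than sampling noise (chi-square per degree of freedom 2.14 to 4.26), which does not tell separate cultures from technical repeats. Each library was counted separately, and their independence was not tested. Transcript lengths were not used, so levels are not compared between genes. Members, gene lists and tests were chosen with earlier results of these data known. Named genes were the DEGs and, in each transport group, the members of largest change and highest level. From each partner list of 6 or more genes, up to 4 genes with at least 50 counts were named, or the whole of a shorter list. Stk39, Oxsr1, Ccs, Sco1, Cox11, Car6 and the ratios were added after values were seen. Promoters came from a RefSeq table of GRCr8 and were matched by symbol. Some of the members and partner genes are counted but not reported here by name. Protein sequences, RT-qPCR, western blot and migration data were not analysed here.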

Additional observations from a re-analysis of the deposited data

How the results depend on the processing

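The counts of members that rose (21) and fell (18) ranged from 18 to 26 and from 16 to 18 over 17 alternatives, and no member that passed the test reversed. With library totals alone, the median log2 fold change of the members was 0.087 and that of all genes 0.055. With a mean of at least 100 counts required, 5 of the 49 members were not tested, 2 members were upregulated DEGs, 0 sodium-calcium carriers were called higher, and 4 subunits of the sodium pump rose instead of 7. Zinc carriers that rose numbered 6 with upper-quartile factors and 7 with totals alone. Under both of these scalings 1 phosphate carrier fell, and 2 calcium pumps did; 2 calcium pumps also fell with the filter. Without replicate 1 of both groups 1 phosphate carrier fell. With single libraries left out, phosphate carriers that fell numbered 1 to 2 and calcium pumps 2 to 4. The only members whose direction changed had log2 fold changes near 0 that never passed. Slc30a9 was 0.015 without replicate 1 of both groups, 0.031 with upper-quartile factors, 0.050 with totals, 0.017 with the filter and -0.021 to 0.011 with single libraries left out. Slc39a9 was 0.010 and 0.030 under the former scalings. With totals, Slc4a1ap was 0.014 and Slc11a2 0.0043. Slc4a1ap was -0.082 to 0.0072 with single libraries left out. Slc30a7 was -0.039 without replicate 1 of both groups, -0.0028 by limma-voom and -0.025 to 0.063 with single libraries left out. The cause of these shifts was not tested. Deviations of same-numbered libraries had correlations of 0.13, -0.012 and 0.065 across genes. C6-AQP1 replicates 1 and 3 correlated best with the control of the same number, and C6-AQP1 replicate 2 with control replicate 3 (0.11). These values do not settle if libraries were paired. The sources used here do not say that the numbers pair libraries, so they were not taken as pairs. With a replicate block 9982 genes passed instead of 9878, and 21 members rose and 18 fell. At the depth of these libraries, changes of members under 100 counts are known only within wide intervals.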
